A study of Mus musculus with 10 samples.

Results

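The 7 genes described here encode the cyclin-dependent kinase (CDK) inhibitors of the mouse. Cdkn1a (p21), Cdkn1b (p27) and Cdkn1c (p57) form the Cip/Kip family, and Cdkn2a (p16INK4a and p19ARF), Cdkn2b (p15), Cdkn2c (p18) and Cdkn2d (p19INK4d) form the INK4 family. They were chosen by name, as the 7 rows of the deposited gene table whose Ensembl identifiers carry these symbols, among 48795 genes in all. All 7 were abundant enough to be tested, among 12859 tested genes.

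Cells advance from G1 into S phase when D-type cyclins activate CDK4 and CDK6 and E-type cyclins activate CDK2, which together inactivate the retinoblastoma family of pocket proteins and release E2F factors. INK4 proteins bind CDK4 and CDK6 and keep them from D-type cyclins, whereas Cip/Kip proteins bind assembled cyclin-CDK complexes and block CDK2 most strongly. In the adult subependymal zone (SEZ), the neurogenic niche that lines the lateral ventricles, p21 and p27 are known as brakes on neural stem cells (NSCs) and on their cycling progeny, the neural progenitor cells (NPCs).

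PolyA RNA was measured by bulk RNA-seq in NSC cultures derived from the SEZ of 10-week-old mice. Proliferating cells (PRO) were neurospheres harvested after 3 days in vitro (DIV) in medium with 20 ng/ml EGF and 10 ng/ml FGF. Differentiating cells (DIFF) were harvested at 2+1 DIV: they were seeded at 40000 cells per cm2 on Matrigel, kept for 2 days with FGF, and then kept for 24 h without mitogens and with 2% fetal bovine serum. WT PRO and WT DIFF had 3 libraries each, and p27KO PRO and p27KO DIFF, from mice carrying a mutated Cdkn1b gene on a C57BL/6 J background, had 2 libraries each. PRO and DIFF cells therefore differ in mitogens, serum, substrate and time in culture at once, and the part of each in a stage change cannot be told apart. The free-text description of the 4 p27KO libraries calls their cells WT, while their titles and genotype field say p27KO. They are called the libraries labelled p27KO, or p27KO for short. Replicates are described as biological, without saying whether they came from separate mice, so the p-values measure only the spread between these libraries.

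Library totals ran from 19190068 to 25291674 estimated counts, so that 1 CPM, a level scaled to the library total, stands for 19.2 to 25.3 counts. The neural progenitor markers Vim, Fabp7, Nes and Egfr averaged 2200, 2180, 939 and 643 CPM over the 10 libraries. Microglial markers reached 0.58 CPM at most, and endothelial markers 1.62 CPM at most, with Cdh5 and Cldn5 at 0 throughout. From PRO to DIFF, the summed astrocyte markers went from 1150 to 1450 CPM up to 3850 to 4280 CPM, and the summed oligodendroglial markers from 1830 to 2360 CPM down to 820 to 1120 CPM. In WT, 4 of 6 tested astrocyte markers rose and none fell, whereas 2 of 5 tested oligodendroglial markers rose and 3 fell. Of all tested genes, 33.5% rose and 33.9% fell in WT. Of the ependymal and of the mural and fibroblast markers, 1 each was abundant enough to be tested, Foxj1 and Acta2, and both rose in WT. Of 5 tested neuronal markers, 2 rose in WT, and none was called between the genotypes at DIFF (median log2 fold change -0.06). The summed neuronal markers were nevertheless higher in p27KO, at 2000 to 2130 CPM against 1470 to 1710 CPM in WT at DIFF. At PRO they were 1510 to 1850 CPM in p27KO and 1230 to 1480 CPM in WT. Map2, which averaged 1590 CPM, made up most of these sums. In bulk RNA, fewer cells of a type and less RNA per cell cannot be told apart, and the part of cell composition in the differences below was not tested. Xist stood at 1.16 to 2.57 CPM in the 6 WT libraries and at 2260 to 3595 CPM in the 4 p27KO libraries, while 4 Y-linked genes summed to 189 to 533 CPM in WT and to at most 0.585 CPM in p27KO, so genotype and sex cannot be told apart in any comparison between them.

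Cdkn1b is the gene named in the genotype and so comes first. It lies on the plus strand of chromosome 6 at 134920401 to 134925513 (GRCm38), overlaps no other annotated gene, and 87.0% of its 4552 exon bases are noncoding. WT PRO libraries held 103, 105 and 112 CPM of Cdkn1b, and WT DIFF libraries held 207, 205 and 209 CPM. The libraries labelled p27KO held 114 and 90.7 CPM at PRO and 140 and 137 CPM at DIFF. Cdkn1b RNA was thus present in all 4 p27KO libraries, on either side of the WT range at PRO and below every WT library at DIFF. The table sums reads over the whole gene, and the bases that the mutated allele lacks are not given in the sources used here, so the level neither checks the genotype labels nor tells whether the RNA can encode p27.

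Cdkn1b rose from PRO to DIFF in both genotypes. In WT cells the rise was 0.94 on the log2 scale (SE 0.08, 1.92-fold, adjusted p = 6.55e-06). Unless another test is named, each adjusted p comes from the quasi-likelihood test of edgeR, adjusted by the method of Benjamini and Hochberg over all tested genes. In p27KO cells it was 0.42 (SE 0.10, 1.33-fold, adjusted p = 0.00606). The p27KO stage change minus the WT stage change was -0.53 on the log2 scale (SE 0.13), a difference between the genotypes that did not pass the threshold (adjusted p = 0.239) but did under DESeq2 (adjusted p = 0.03). At DIFF, Cdkn1b was lower in p27KO than in WT, with a log2 fold change of -0.56 (SE 0.09, 1.48-fold lower, adjusted p = 0.012), and at PRO the difference was -0.03 (SE 0.09, adjusted p = 1). The call at DIFF was lost without p27KO DIFF replicate 1 (adjusted p = 0.114) or replicate 2 (adjusted p = 0.152), which leaves a single p27KO library that is assumed to vary like the other groups.

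**Figure D1:**
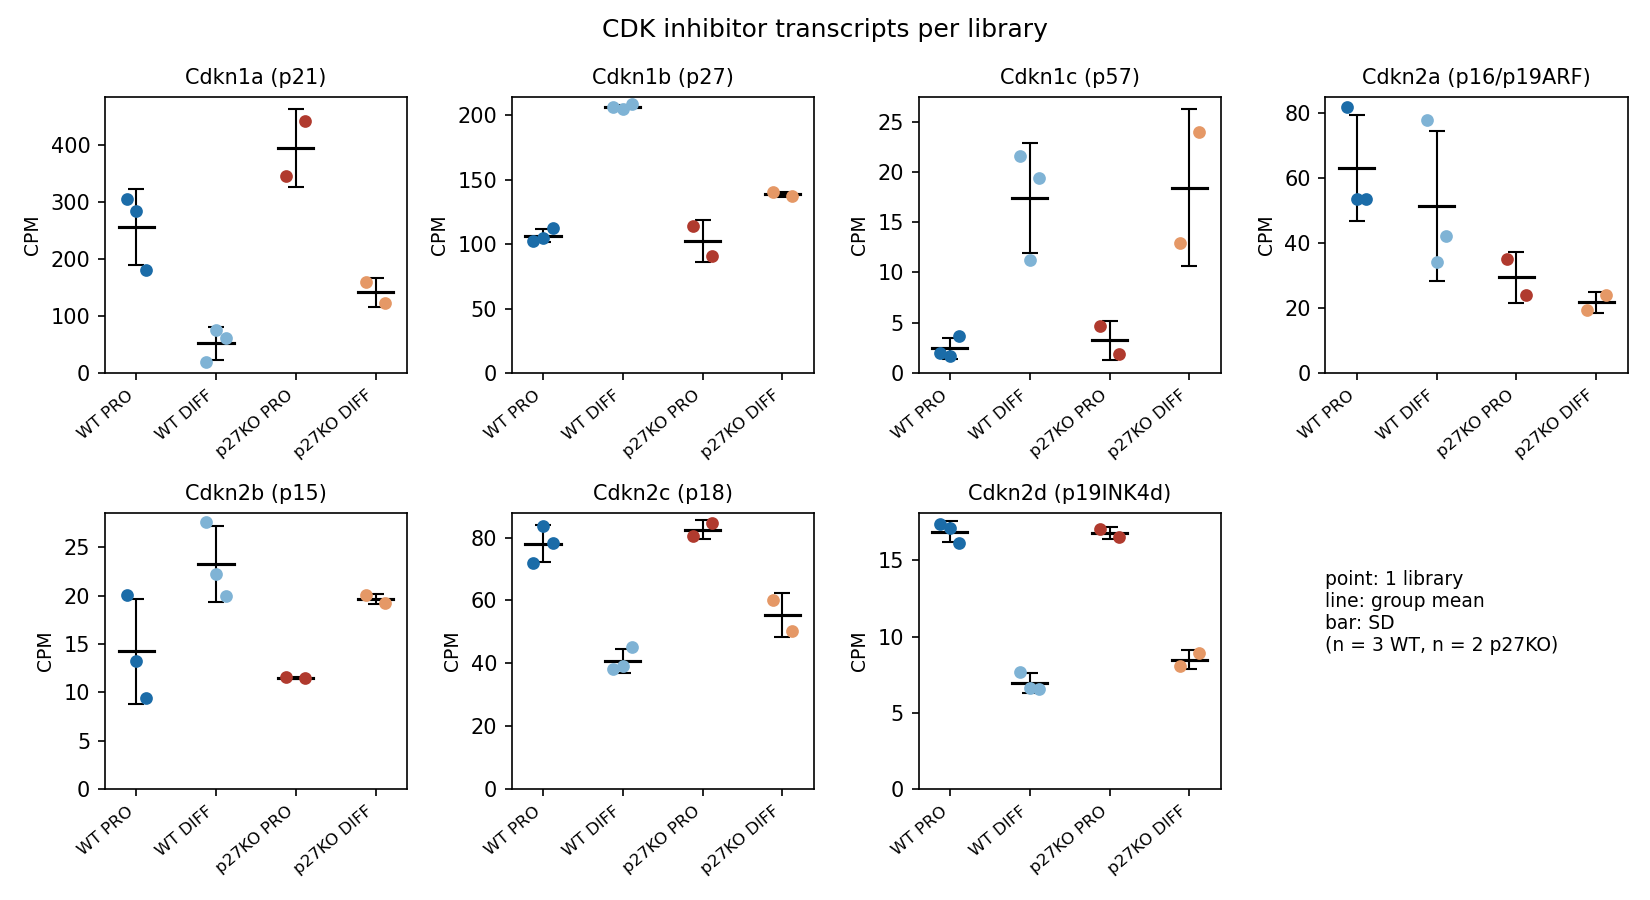
CPM of each CDK inhibitor gene (vertical axes, linear and from 0) in the 4 groups. Points are libraries, lines are group means and bars are SD (n = 3 for WT, n = 2 for p27KO). Cdkn1b sits at 205 to 209 CPM in WT DIFF and at 137 to 140 CPM in p27KO DIFF, and Cdkn2a is lower in the p27KO libraries than in the WT libraries of the same stage.

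Cdkn1a encodes p21, the CDK inhibitor best known as a p53 target. It lies on the plus strand of chromosome 17 at 29090976 to 29100727, with the unclassified transcript AC167363.2 annotated on the opposite strand. The WT PRO libraries had 305, 284 and 181 CPM of Cdkn1a, against 19.9, 75.1 and 61.3 CPM in WT DIFF. In p27KO, PRO libraries had 346 and 443 CPM and DIFF libraries 159 and 123 CPM. The groups did not overlap between stages in either genotype, and at each stage both p27KO libraries were above all WT libraries.

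Cdkn1a fell at DIFF, the opposite of Cdkn1b. In WT the log2 fold change was -2.30 (SE 0.44, 4.92-fold lower, adjusted p = 0.00172), and 5.59% of tested genes had a larger absolute change. In p27KO the log2 fold change was -1.51 (SE 0.53, 2.85-fold lower, adjusted p = 0.0363). That p27KO call is not firm: a fit that also held the replicate number as a block gave -1.46 with adjusted p = 0.083, it was also lost without any 1 of the 4 p27KO libraries (adjusted p from 0.0507 to 0.158) or WT DIFF replicate 3 (adjusted p = 0.0551), and the lowest adjusted p of all alternatives, 0.00119, came from fitting the p27KO groups alone. Between the genotypes, Cdkn1a differed by 1.44 at DIFF (SE 0.47, 2.72-fold, adjusted p = 0.202) and by 0.65 at PRO (SE 0.46, 1.57-fold, adjusted p = 1), and neither difference passed the threshold. The interaction, the p27KO stage change minus the WT stage change, was 0.79 (SE 0.67, adjusted p = 1). WT DIFF replicate 1 held the lowest level, and leaving out 1 library at a time moved the difference at DIFF between 1.07 and 1.82.

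The sequence before the upstream of the 2 annotated Cdkn1a starts is shown because it carries a letter pattern of p53 sites. The pattern searched was the pair CATGNNNNNNCATG, the core letters of adjoining p53 site repeats, on both strands of windows that run from 250 bases before to 50 bases after each start (RefSeq, GRCm38.p6). The pair is in capitals and begins at position -48 of the start:

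Cdkn1a upstream start, chr17:29090729-29091028, plus strand: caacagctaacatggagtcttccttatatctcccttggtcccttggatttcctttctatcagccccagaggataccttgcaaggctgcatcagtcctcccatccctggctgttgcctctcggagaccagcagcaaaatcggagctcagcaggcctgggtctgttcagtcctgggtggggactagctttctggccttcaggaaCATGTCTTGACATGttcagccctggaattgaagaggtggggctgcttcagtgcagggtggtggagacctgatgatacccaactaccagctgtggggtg

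The pair occurs in 0.71% of 32817 RefSeq windows of this length. It was not in the window of the other Cdkn1a start nor in the windows of the other members that had one. A FOXO pattern, TGTTTAC, which 3.65% of windows hold, was in no member's window, and TTTGAA, the letters of cell cycle homology regions, which 17.9% hold, was in that of Cdkn2b alone, at position -161. A match of letters is a description and not evidence of binding.

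Across the 10 libraries, the 2 genes whose pattern was most like that of Cdkn1a, by Pearson r of log2 CPM among 9749 genes that averaged 10 CPM or more, were Aen (r = 0.995) and Phlda3 (r = 0.992), both known p53 targets. The points share the 4 groups and their library depth, and 34 genes reached an r of 0.95 with Cdkn1a. Aen stood at 147, 143 and 106 CPM in WT PRO, 21.4, 53.5 and 52.3 CPM in WT DIFF, 155 and 164 CPM in p27KO PRO, and 92.4 and 86.4 CPM in p27KO DIFF. As with Cdkn1a, WT DIFF replicate 1 was the lowest library and p27KO PRO replicate 2 the highest.

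**Figure D2:**
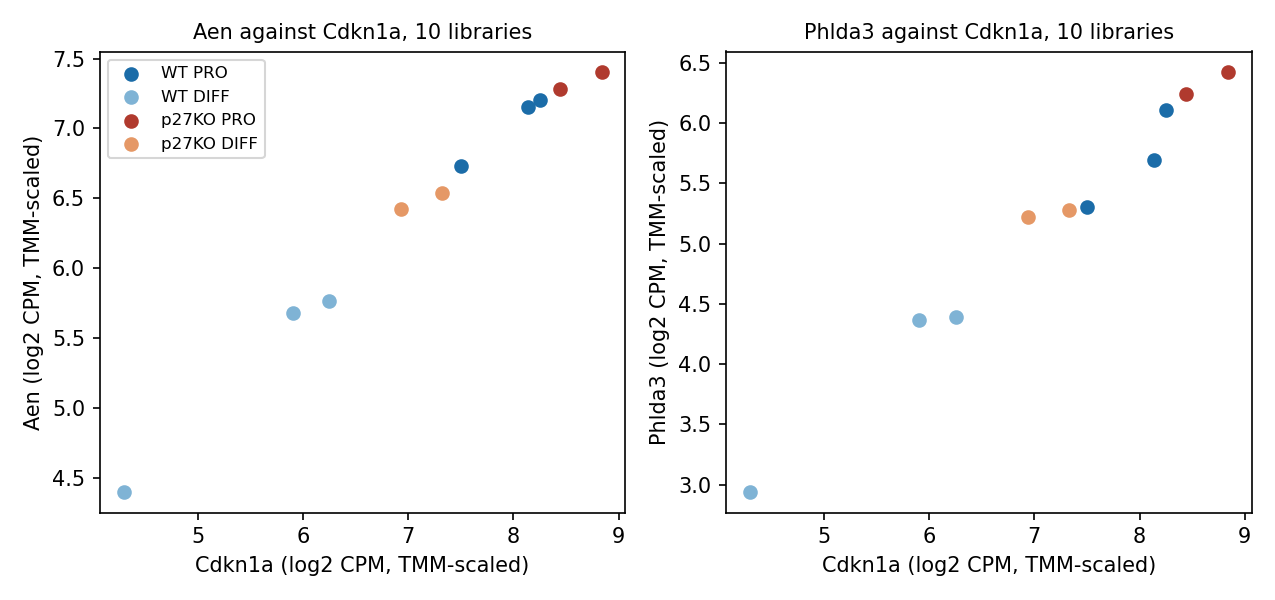
Aen (left) and Phlda3 (right) against Cdkn1a, each as TMM-scaled log2 CPM, in 10 libraries coloured by group. The points run together from WT DIFF replicate 1 at the lower left to p27KO PRO at the upper right, with r of 0.995 and 0.992, given as a description over libraries that share groups.

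Among 17 other p53 target genes, a list that holds Aen and Phlda3, 16 were tested. In WT, 4 rose (33.5% of all tested genes did) and 9 fell (33.9%) at DIFF, with a median log2 fold change of -0.61 against 0.00 for all tested genes. In p27KO, 3 rose (27.5%) and 2 fell (30.2%). Of the 4 most abundant, Zmat3, an RNA-binding protein, fell in WT (-0.71, SE 0.15, adjusted p = 0.00177), and Btg2, an antiproliferative gene, rose in WT (0.93, SE 0.13, adjusted p = 0.000165). Ccng1 had a WT log2 fold change of -0.81 (SE 0.34, adjusted p = 0.06) and Trp53inp1 one of -0.04 (SE 0.18, adjusted p = 0.875). The list thus moved in both directions with stage. At DIFF, 2 of the 16 were higher in p27KO (1.91% of all tested genes were called higher) and none lower (0.124%). The 2 were Pmaip1, which encodes the apoptosis inducer Noxa (1.80, SE 0.35, adjusted p = 0.0332), and Polk, a DNA polymerase (0.73, SE 0.13, adjusted p = 0.019), named after their values were seen. The median difference of the list was 0.61, against -0.01 for all tested genes. Within the list, Aen and Phlda3 were lowest in WT DIFF replicate 1, where Phlda3 stood at 7.74 CPM. In the other WT DIFF libraries Phlda3 stood at 20.7 and 21 CPM. How far that library sets the median was not tested.

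Cdkn1c, which encodes p57 and is expressed from the maternal allele of an imprinted domain, lies on the minus strand of chromosome 7 at 143458339 to 143461050. It was near the limit of the filter at PRO, with 1.93, 1.72 and 3.64 CPM in WT and 4.63 and 1.87 CPM in p27KO. At DIFF it reached 21.6, 11.2 and 19.4 CPM in WT and 12.9 and 24.0 CPM in p27KO. Every DIFF library was above every PRO library, and the genotypes overlapped at both stages.

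Cdkn1c showed the largest stage change of the 7 genes in both genotypes. It rose by 2.82 on the log2 scale in WT (SE 0.44, 7.08-fold, adjusted p = 0.000347) and by 2.47 in p27KO (SE 0.52, 5.53-fold, adjusted p = 0.00303). Only 3.24% of tested genes had a larger absolute change in WT. The genotypes differed by 0.10 at DIFF (SE 0.43, adjusted p = 0.935) and by 0.46 at PRO (SE 0.49, adjusted p = 1), with standard errors that leave room for differences of that size in either direction. Gm44732, an annotated transcript on the opposite strand, overlaps Cdkn1c and held 0 to 7 counts in PRO libraries and 2 to 44 in DIFF libraries, where Cdkn1c held 37 to 112 and 271 to 533. Whether the counting used strand is not given in the sources used here, so reads of the pair may not be separable.

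The genes most like Cdkn1c in pattern were Dcx, a marker of neuroblasts, and Kit, a receptor tyrosine kinase, with r of 0.99 each. In all, 244 genes reached an r of 0.95, and the points again share the 4 groups. Dcx rose by 4.61 (SE 0.90, adjusted p = 0.00181) in WT. Of 9 other genes of the imprinted domain, 5 were tested, of which 2 rose and 2 fell in WT, and the same counts held in p27KO. Of all tested genes, 33.5% rose and 33.9% fell in WT, with 27.5% and 30.2% in p27KO. Kcnq1ot1, the long noncoding RNA that silences the paternal copy of the domain, rose by 1.23 in WT (SE 0.28, adjusted p = 0.00387) and by 1.48 in p27KO (SE 0.35, adjusted p = 0.00561). Its neighbours Nap1l4 and Tssc4 fell in WT by 0.40 (SE 0.09, adjusted p = 0.00215) and by 0.66 (SE 0.09, adjusted p = 0.00017). The tested genes of the domain thus shared no direction.

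The INK4 genes opposed one another from PRO to DIFF: Cdkn2c and Cdkn2d fell, Cdkn2b rose in WT, and the change of Cdkn2a did not pass the test. Cdkn2a and Cdkn2b lie next to each other on the minus strand of chromosome 4, at 89274471 to 89294653 and at 89306299 to 89311039, with 11645 bases between them. Cdkn2c lies elsewhere on chromosome 4, at 109660876 to 109667189, and Cdkn2d on chromosome 9, at 21288410 to 21291407, both on the minus strand.

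Cdkn2a encodes 2 unrelated proteins from separate starts: p16INK4a, an inhibitor of CDK4 and CDK6, and p19ARF, which stabilises p53 by binding Mdm2. The gene table does not separate them. The windows at both starts are shown because either start could give the counts below (RefSeq, GRCm38.p6, both strands searched). Capitals mark an E2F pattern, one of TTTCCCGC, TTTGGCGC, TTTCGCGC and TTTGCCGC, which 2.26% of windows hold and which begins at position -99 of the ARF start:

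Cdkn2a ARF start, chr4:89294570-89294869, minus strand: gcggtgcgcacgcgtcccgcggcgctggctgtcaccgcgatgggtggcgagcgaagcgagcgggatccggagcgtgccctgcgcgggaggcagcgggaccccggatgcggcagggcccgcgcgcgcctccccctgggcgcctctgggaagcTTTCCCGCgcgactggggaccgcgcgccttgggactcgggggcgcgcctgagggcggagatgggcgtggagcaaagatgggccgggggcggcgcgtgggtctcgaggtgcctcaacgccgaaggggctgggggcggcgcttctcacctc

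Cdkn2a INK4a start, chr4:89282143-89282442, minus strand: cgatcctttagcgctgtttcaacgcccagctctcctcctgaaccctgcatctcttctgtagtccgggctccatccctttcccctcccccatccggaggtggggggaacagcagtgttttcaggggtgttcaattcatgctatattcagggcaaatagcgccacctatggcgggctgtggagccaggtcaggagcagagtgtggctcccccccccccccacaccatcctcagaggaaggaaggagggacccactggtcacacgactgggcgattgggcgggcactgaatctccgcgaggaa

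None of the E2F patterns is in the INK4a window. The windows differ in base composition, with 77.0% G and C at the ARF start and 60.3% at the INK4a start. Cdkn2a and Cdkn2b are paralogs, and similar stretches with mismatches between them were not searched. The longest run of identical bases between their transcripts was 23 bases, shown as their longest exact match:

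Cdkn2a and Cdkn2b shared run: cgggaaggcttcctggacacgct

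No stretch of 50 bases of Cdkn2a, or of any member other than Cdkn1a, was found in another gene's transcripts. In Cdkn1a, 76 of 3547 such stretches (2.14%) were.

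Cdkn2a was lower in the libraries labelled p27KO at both stages. WT PRO libraries held 81.8, 53.5 and 53.4 CPM, against 34.9 and 23.9 CPM in p27KO PRO. At DIFF, WT libraries held 77.7, 34.2 and 42.1 CPM, against 19.3 and 24.0 CPM in p27KO. The genotypes did not overlap within either stage, although WT libraries varied among themselves by up to a coefficient of variation of 45.1% at DIFF. The difference was -1.07 at PRO (SE 0.35, 2.10-fold lower, adjusted p = 0.914) and -1.23 at DIFF (SE 0.36, 2.34-fold lower, adjusted p = 0.153), and neither passed the threshold with edgeR. DESeq2 called the difference at DIFF (-1.21, adjusted p = 0.00663), and without WT DIFF replicate 1 it was -0.80 (adjusted p = 0.258). Only 0.801% and 1.8% of tested genes had larger absolute differences at PRO and at DIFF. With stage, Cdkn2a had log2 fold changes of -0.31 in WT (SE 0.30, adjusted p = 0.388) and -0.47 in p27KO (SE 0.38, adjusted p = 0.322). Without WT DIFF replicate 1, in which Cdkn2a was highest at that stage, the WT value became -0.70 (adjusted p = 0.0233).

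Cdkn2b, which encodes p15 and is known as a target of TGF-beta signalling, stood at 20.1, 13.2 and 9.41 CPM in WT PRO and at 27.6, 22.2 and 20.0 CPM in WT DIFF. Its levels in p27KO were 11.6 and 11.5 CPM at PRO and 20.0 and 19.3 CPM at DIFF. The WT stages overlapped at a single point, WT PRO replicate 1. Cdkn2b rose by 0.70 in WT (SE 0.24, 1.62-fold, adjusted p = 0.0249) and had a log2 fold change of 0.75 in p27KO (SE 0.29, 1.68-fold, adjusted p = 0.0519), which did not pass the threshold. The WT call was lost in 5 of 18 alternatives (adjusted p up to 0.0769), among them leaving out WT DIFF replicate 1, WT PRO replicate 2 or WT PRO replicate 3, and the p27KO value passed in 9 of 18 (adjusted p down to 0.00398), so the calls of the 2 genotypes do not show a difference between them (interaction 0.05, SE 0.38, adjusted p = 1). Each WT DIFF library was above the WT PRO library of the same number. In a fit over all 10 libraries that blocks on these numbers, the WT rise was 0.74 (SE 0.16, adjusted p = 0.00327). That fit gives WT and p27KO libraries of the same number a shared effect, though no label links them. It is therefore not a paired test of WT alone. The same fit gave adjusted p = 0.0113 in p27KO, where same-numbered libraries did not deviate together.

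Of 4 genes that neighbour Cdkn2a and Cdkn2b, 3 were tested and 1 was called in WT (67.4% of all tested genes were called). Mtap, an enzyme of methionine salvage, fell by 1.80 in WT (SE 0.11, adjusted p = 5.7e-07). Klhl9 and Dmrta1 had WT values of 0.06 (SE 0.10) and -0.73 (SE 0.67). Of 10 Polycomb genes and related demethylases that are known to act on the locus, 2 rose and 4 fell in WT (median log2 fold change -0.16), with 1 and 4 in p27KO. Of all tested genes, 33.5% rose and 33.9% fell in WT, with 27.5% and 30.2% in p27KO, so these counts are near the background. Ezh2, the PRC2 methyltransferase, fell by 1.09 (SE 0.11, adjusted p = 1.61e-05) in WT, while Bmi1, the PRC1 subunit best known as a Cdkn2a repressor, had a log2 fold change of -0.16 (SE 0.10, adjusted p = 0.166). At DIFF, Bmi1 differed between the genotypes by 0.17 (SE 0.11, adjusted p = 0.502). None of the 10 was called between the genotypes at either stage.

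Cdkn2c encodes p18, and its level was 71.9, 83.7 and 78.4 CPM in WT PRO and 38.2, 39.0 and 45.3 CPM in WT DIFF. In p27KO it was 80.4 and 84.6 CPM at PRO and 60.3 and 50.4 CPM at DIFF. PRO and DIFF libraries did not overlap, and both p27KO DIFF libraries were above all WT DIFF libraries. It fell by 0.94 in WT (SE 0.10, 1.92-fold lower, adjusted p = 2.48e-05) and by 0.60 in p27KO (SE 0.12, 1.52-fold lower, adjusted p = 0.00233). The genotypes differed by 0.45 at DIFF (SE 0.11, adjusted p = 0.0869), which DESeq2 called (adjusted p = 0.011). The interaction was 0.34 (SE 0.16, adjusted p = 1).

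Cdkn2d, which encodes p19INK4d, varied little between replicates. WT PRO libraries had 17.4, 17.2 and 16.1 CPM, and WT DIFF libraries 7.68, 6.63 and 6.56 CPM. In p27KO the values were 17.1 and 16.5 CPM at PRO and 8.05 and 8.95 CPM at DIFF. The genotypes were interleaved at PRO and apart at DIFF. The gene fell by 1.29 in WT (SE 0.11, 2.45-fold lower, adjusted p = 4.42e-06) and by 1.01 in p27KO (SE 0.13, 2.01-fold lower, adjusted p = 0.000137). The difference at DIFF was 0.30 (SE 0.12, adjusted p = 0.273).

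Cdkn2c was most like Cep128, a centriole gene (r = 0.988), and Rbl1, which encodes the pocket protein p107 (r = 0.986), with 342 genes at an r of 0.95 or more. Cdkn2d was most like Dna2, a replication nuclease (r = 0.998), and Cdt1, an origin licensing factor (r = 0.996), with 1357 such genes. Cdt1 fell much further than Cdkn2d, by 5.11 in WT (SE 0.20, adjusted p = 6.71e-08). For the other members, the leading genes were Cryz (0.972) and Aamdc (0.971) for Cdkn1b, Abcf3 (0.957) and Prdx2 (0.934) for Cdkn2a, and Mir9-3hg (0.97) and Rasl10b (0.961) for Cdkn2b. Cdkn2a had 1 gene at an r of 0.95, and Cdkn2b had 5.

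**Figure D3:**
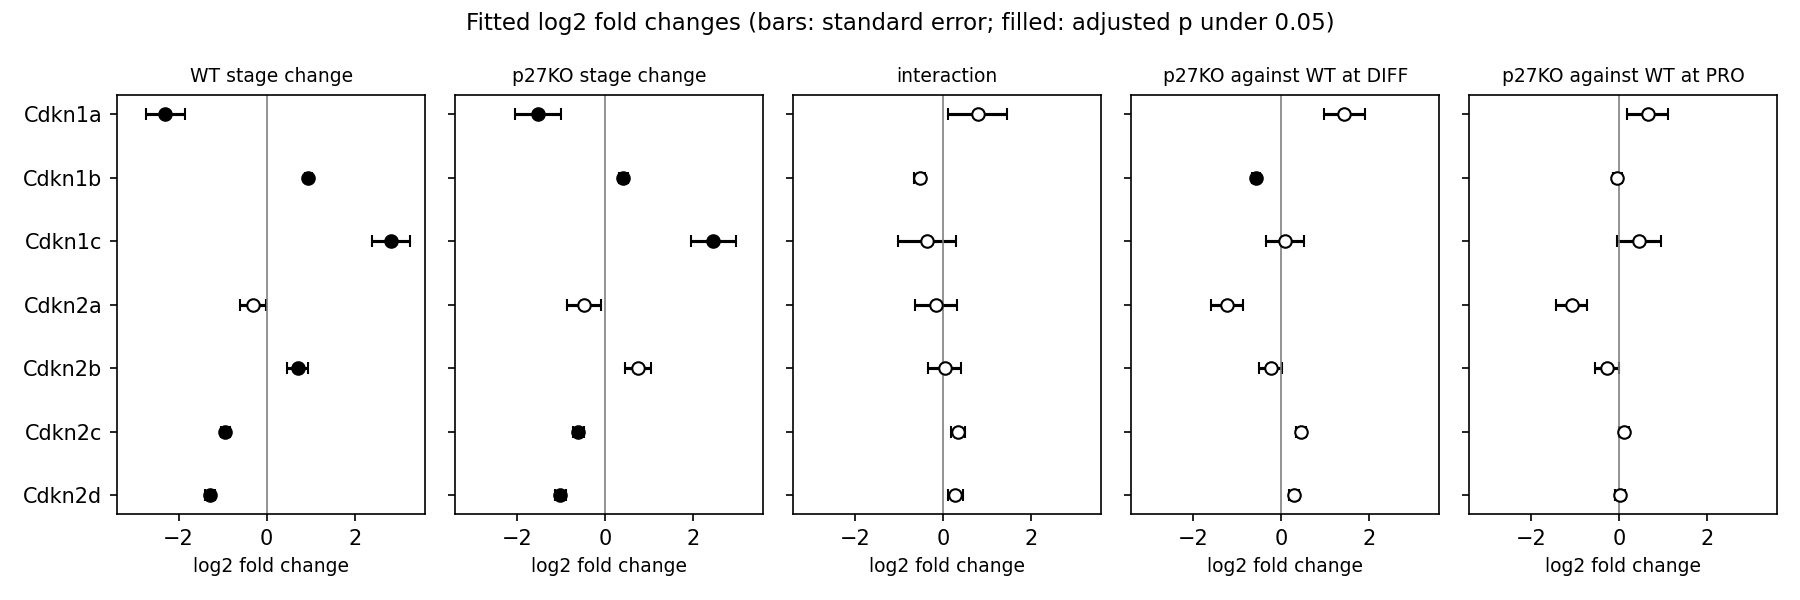
Fitted log2 fold changes (horizontal axes) of the 7 genes in 5 comparisons. Bars are standard errors and filled points have an adjusted p under 0.05. Cdkn1b, Cdkn1c and Cdkn2b point up and Cdkn1a, Cdkn2c and Cdkn2d point down in both stage changes, and Cdkn1b at DIFF is the single filled point among the genotype differences.

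Counted together, 6 of the 7 genes passed the test for the WT stage change, 3 higher (33.5% of all tested genes were called higher) and 3 lower (33.9%), so that 67.4% of all tested genes were called in either direction. In p27KO, 5 of 7 passed, 2 higher (27.5%) and 3 lower (30.2%), with 57.7% of tested genes in either direction. These shares are near the background, so the number of calls is not particular to the CDK inhibitors. Their median absolute log2 fold change was 0.94 in WT and 0.75 in p27KO, against 0.57 and 0.54 for all tested genes. Between the genotypes, 1 member was lower at DIFF (0.124% of tested genes were called lower, 1.91% higher and 2.04% in either direction) and 0 were called at PRO (0.0156%). No member was called for the interaction (0.389%), where edgeR called 50 genes and 554 had an unadjusted p under 0.05. There, DESeq2 called Cdkn1b among 157 genes (1.22%). At PRO, 603 genes had an unadjusted p under 0.05, and DESeq2 called no member either.

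The share of members whose libraries did not overlap can be set beside that of all tested genes. At DIFF, the genotypes were apart in 5 of 7 members, against 37.3% of tested genes. At PRO, they were apart in 2 of 7, Cdkn1a and Cdkn2a, against 17.8%. Between stages, 5 of 7 were apart in WT (71.9% of tested genes) and 6 of 7 in p27KO (79.8%). The 5 members apart at DIFF went in both directions, with Cdkn1a, Cdkn2c and Cdkn2d higher in p27KO and Cdkn1b and Cdkn2a lower.

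Levels of different genes can be compared only per length. In CPM per kilobase of annotated exon, the order in WT PRO was Cdkn1a at 72.2 ± 18.7 (SD, n = 3), Cdkn2a at 53.7 ± 13.9, Cdkn2c at 29.0 ± 2.19, Cdkn1b at 23.4 ± 1.13, Cdkn2d at 10.7 ± 0.426, Cdkn2b at 10.2 ± 3.91 and Cdkn1c at 1.19 ± 0.518. The ranges of Cdkn1a and Cdkn2a overlapped, as did those of Cdkn2d and Cdkn2b, and the other neighbours in the order were apart. In WT DIFF, Cdkn1b led at 45.4 ± 0.369 CPM per kilobase, followed by Cdkn2a at 43.8 ± 19.8, which overlapped it, while Cdkn2b at 16.8 ± 2.82, Cdkn2c at 15.2 ± 1.44 and Cdkn1a at 14.7 ± 8.09 were not separable. Cdkn1c at 8.53 ± 2.67 overlapped Cdkn1a, and Cdkn2d was lowest at 4.42 ± 0.4. With the longest transcript as the length in place of all exon bases, Cdkn2a came before Cdkn1b, and Cdkn1a came next, in WT DIFF.

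In p27KO, Cdkn1a led at both stages. Its level per length was 111 ± 19.4 CPM per kilobase (SD, n = 2) at PRO and 39.7 ± 7.23 at DIFF, and Cdkn1b followed at DIFF with 30.5 ± 0.477. The ratio of Cdkn1a to Cdkn1b per length sets these Cip/Kip members side by side library by library. It was 3.81, 3.47 and 2.06 in WT PRO and 0.123, 0.469 and 0.377 in WT DIFF. In p27KO it was 3.89 and 6.26 at PRO and 1.46 and 1.15 at DIFF. Cdkn1a was thus above Cdkn1b in all PRO libraries, below it in all WT DIFF libraries and above it in both p27KO DIFF libraries. In p27KO, Cdkn1b was divided by its full annotated exon length, although the bases that the mutated allele lacks are not given. The order and ratio in p27KO hold only for that length.

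Summed over the 7 genes, the level was 201 ± 31.1 CPM per kilobase in WT PRO and 149 ± 16.1 in WT DIFF (n = 3 each), and 210 ± 8.99 in p27KO PRO and 138 ± 3.61 in p27KO DIFF (n = 2 each). The INK4 genes made up 48.3% to 54.3% of that sum in WT PRO, 47.1% to 63.1% in WT DIFF, 32.7% to 38.7% in p27KO PRO and 41.6% to 43.4% in p27KO DIFF. The INK4 share was thus lower in every p27KO library than in every WT library, a difference that was not tested. Neither Cdkn1a nor Cdkn2a, which enter the share, was called between the genotypes by edgeR at either stage. The share also counts all Cdkn2a RNA as INK4, although the gene table does not separate p16INK4a from p19ARF. The p27KO sums and shares rest on the same Cdkn1b length and count Cdkn1b RNA that may not encode p27. Cdkn2a by itself made up 22.7% to 30.1% of the sum in WT PRO and 9.41% to 14.6% in p27KO PRO. The share of Cdkn1a was 30.1% to 39.8% in WT PRO and 47.9% to 57.7% in p27KO PRO.

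**Figure D4:**
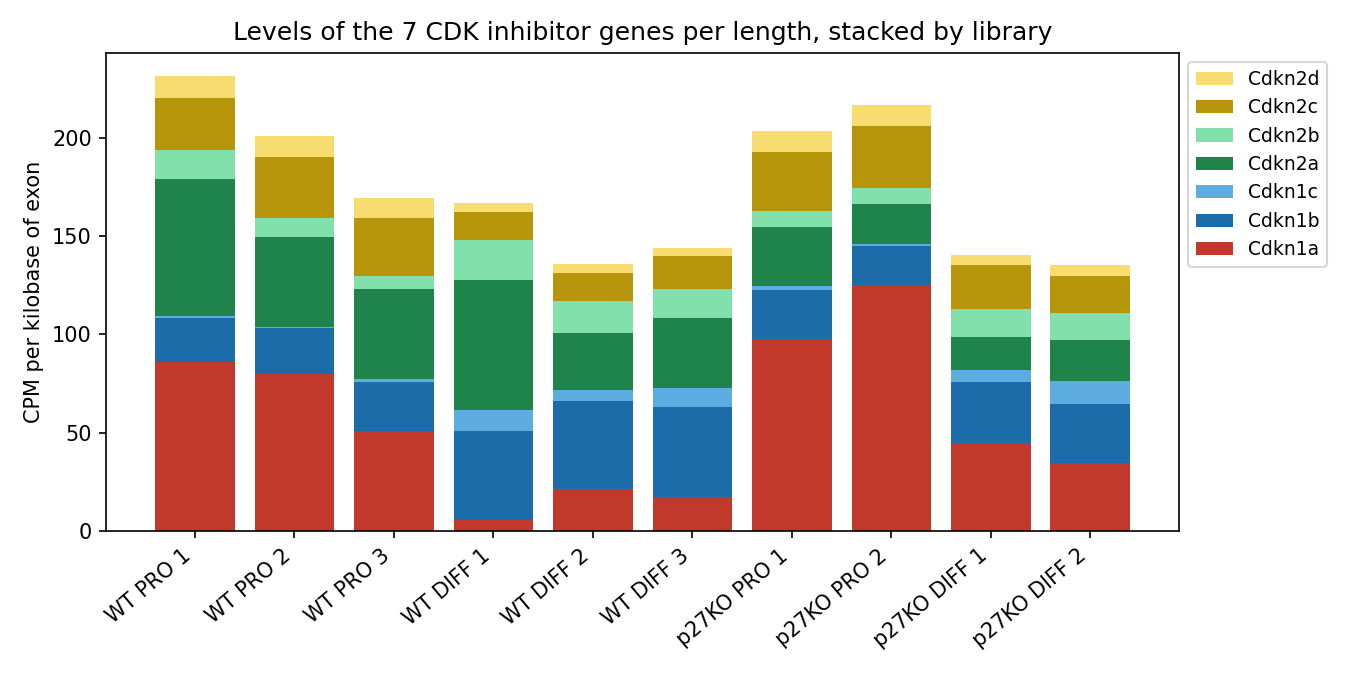
Level of each CDK inhibitor gene in CPM per kilobase of exon (vertical axis, linear, from 0), stacked in each of 10 libraries. Cdkn1a, at the foot of each bar, is thickest in p27KO PRO with a mean of 111 and thinnest in WT DIFF with a mean of 14.7, and Cdkn1b is thickest in WT DIFF with a mean of 45.4.

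Most of the listed genes that the inhibitors act on were lower at DIFF than at PRO. Of 11 cyclin and CDK genes, 10 fell in WT (33.9% of all tested genes did) and 10 in p27KO (30.2%), and none rose. Their median log2 fold changes were -2.81 and -1.82, against 0.00 and -0.03 for all tested genes. Cyclin D1 (Ccnd1) had a log2 fold change of -5.89 in WT (SE 0.18, adjusted p = 3.93e-08) and of -5.97 in p27KO (SE 0.23, adjusted p = 5.05e-07). Ccnd2 and Cdk4 fell less, with WT values of -1.21 (SE 0.17, adjusted p = 0.000147) and -0.96 (SE 0.11, adjusted p = 3.62e-05). Cyclin A2 (Ccna2), the S and G2 phase partner of CDK2 and CDK1, fell by 3.57 in WT (SE 0.17) and in p27KO its log2 fold change was -1.85 (SE 0.19), and this difference between the genotypes passed the test (interaction 1.72, SE 0.25, adjusted p = 0.023). That interaction call is not firm: without WT PRO replicate 2, or without WT PRO replicate 3, no tested gene passed for the interaction. At DIFF, 3 of the 11 were higher in p27KO, where 1.91% of all tested genes were called higher. They were Ccna2 by 1.74 (SE 0.17, adjusted p = 0.000937), and, named after their values were seen, Cdk1 by 1.43 (SE 0.20, adjusted p = 0.0058) and Ccnb1 by 1.47 (SE 0.28, adjusted p = 0.0299).

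Downstream of the kinases, 8 pocket protein and E2F genes were tested, of which 2 rose and 5 fell in WT and 3 rose and 5 fell in p27KO. Of all tested genes, 33.5% rose and 33.9% fell in WT, and 27.5% rose and 30.2% fell in p27KO. Rb1 rose by 1.02 in WT (SE 0.09, adjusted p = 7.57e-06) and Rbl2 by 0.84 (SE 0.09, adjusted p = 1.93e-05), whereas Rbl1 fell by 1.87 (SE 0.09, adjusted p = 1.62e-07) and E2f3 by 1.34 (SE 0.07, adjusted p = 3.4e-07). The pocket protein genes thus moved apart, as the INK4 genes did. At DIFF, 2 of the 8 were higher in p27KO (1.91% of all tested genes were called higher), among them Rbl1 by 0.75 (SE 0.10, adjusted p = 0.00324).

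The level of p27 protein is set largely by ubiquitin ligases, and 12 genes of that machinery were tested. In WT, 2 rose (33.5% of all tested genes did) and 8 fell (33.9%), and in p27KO 0 rose (27.5%) and 4 fell (30.2%). The median log2 fold change of the 12 genes was -0.27 in WT and -0.18 in p27KO. The abundant subunits moved little: Ddb1 fell by 0.18 in WT (SE 0.07, adjusted p = 0.0342), Cul1 fell by 0.25 (SE 0.08, adjusted p = 0.0179), and Skp1a rose by 0.42 (SE 0.14, adjusted p = 0.0205). Skp2 and Cks1b, which together recognise phosphorylated p27 and are named here for that role after their values were seen, fell by 1.54 (SE 0.13, adjusted p = 3.8e-06) and by 2.84 (SE 0.12, adjusted p = 8.36e-08) in WT. Cdkn1b RNA and these 2 genes thus moved in opposite directions in WT, and protein was not measured here.

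Among 14 transcription factor genes known to act on the inhibitors, 13 were tested and every one of these passed the test in both genotypes, with 6 higher and 7 lower in each. Of all tested genes, 67.4% passed in WT and 57.7% in p27KO. The median log2 fold change of the list was -0.27 in WT and -0.24 in p27KO. Foxo3, which is known to activate Cdkn1b, rose by 0.93 in WT (SE 0.11, adjusted p = 3.98e-05) and by 0.97 in p27KO (SE 0.13, adjusted p = 0.000189). Myc, known to repress Cdkn1a and Cdkn2b, fell by 2.31 in WT (SE 0.24, adjusted p = 2.4e-05) and by 2.44 in p27KO (SE 0.29, adjusted p = 0.000113). Sp1 fell by 0.27 in WT (SE 0.07, adjusted p = 0.00923), and Smad4, a mediator of TGF-beta signals, rose by 0.21 (SE 0.08, adjusted p = 0.0359). None of the 13 was called between the genotypes at PRO or at DIFF.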

How the data were processed

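Bulk RNA-seq was analysed in 10 libraries, grouped by their labels. Per the labels, reads were trimmed, aligned to GRCm38 and quantified by the authors with STAR and RSEM, whose deposited estimated counts per gene were used as given. No column was left unmapped. Estimated counts assign shared reads by a model, so levels of overlapping or repeated sequence are uncertain. Genes with under 1 CPM in at least 4 of 10 libraries were discarded, leaving 12859 of 48795. The other genes were tested with edgeR 4.0.16 (R 4.3.3) using TMM factors, a model of 4 groups over all 10 libraries, robust quasi-likelihood fits and Benjamini-Hochberg adjustment at 0.05, in 5 comparisons. The procedure was tested on simulated data. DESeq2 1.42.0 was an alternative, besides other scalings and filters, only the groups compared, a replicate block and each library left out. CPM shown per library were divided by library totals. Lengths came from GENCODE M21. RefSeq windows matched 6 of 7 members.

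Members and lists were chosen with earlier results of these data known. All 7 members were named in every comparison. Of each list, up to 4 tested genes with the highest mean CPM were named, apart from the exceptions stated, and for each member the 2 genes with the highest r.

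Same-numbered WT libraries of the 2 stages deviated together (r of 0.248, 0.301 and 0.395, against -0.221 to -0.087 for other numbers), so the numbers may pair WT libraries. The main tests did not use this pairing and treated the WT libraries as unpaired. The replicate block was fitted only as an alternative. Deviations were from group means and cancel within a group, so the negative values partly follow from the positive ones. In p27KO, r was -0.138 for the same number and 0.138 when crossed, which with 2 libraries per group is a single value with its sign turned.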

Additional observations from a re-analysis of the deposited data

How the results depend on the processing

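The number of CDK inhibitor genes called stayed within 1.5 times its main value in all alternatives for both stage changes and for PRO. At DIFF, 1 gene was called in the main analysis and 3 with DESeq2 and with the crossed block, a pairing chosen after seeing the data. These settings called more genes in general: 2.04% of tested genes in the main analysis, 4.91% with DESeq2 and 4.07% with the crossed block. As stated above, the call of Cdkn1b at DIFF was lost when either p27KO DIFF library was left out. For the interaction, DESeq2 called 1 in place of 0, with 1.22% of tested genes called in place of 0.389%. With the replicate block, Cdkn1a in p27KO went to -1.46 (adjusted p = 0.083) and Cdkn2b in p27KO passed (adjusted p = 0.0113), and no other call of a member changed. Of 623 values of single genes, 577 kept direction and side of the threshold, 15 lost the call, 15 gained it and 16 turned sign, all 16 from values that had not passed. Cdkn2d at PRO became -0.0202 with the block, -0.0203 with the crossed block, -0.0087 without TMM, which was added after seeing the data, and -0.0105 without WT PRO replicate 3. Leaving out 1 library at a time turned the sign within these ranges: in the interaction -0.3911 to 0.2744 for Cdkn2a (turned to 0.2744 and 0.1218), -0.2849 to 0.2709 for Cdkn2b (-0.0604 and -0.2849) and -0.8584 to 0.4251 for Cdkn1c (0.019 and 0.4251), at DIFF -0.4047 to 0.4736 for Cdkn1c (-0.1263 and -0.4047), and at PRO -0.5001 to 0.0557 for Cdkn2b, -0.1847 to 0.1009 for Cdkn1b (0.0073 and 0.1009), -0.326 to 0.9383 for Cdkn1c and -0.0105 to 0.0431 for Cdkn2d. The cause was not tested. Among the members, Cdkn1c at PRO had the lowest counts behind it.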
